A study of Mus musculus with 2 samples.

Results

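The 37 genes described here encode kinesin motors, the microtubule motor proteins named KIF. They were taken by symbol, as every gene written Kif with a number and at most 1 letter or Kifc with a number, out of 19505 named genes measured on 2 Affymetrix arrays. The RNA came from B16F10, a pigmented melanoma cell line of the mouse. The NRF3 cells had received an expression plasmid for NRF3 and the GFP cells an expression plasmid for green fluorescent protein. Both populations carried a puromycin resistance vector as well, were selected with puromycin as stable cells and were then treated with forskolin, an activator of adenylate cyclase, for 5 days. The comparison therefore concerns the cap'n'collar transcription factor NRF3 under forskolin, and no cells without forskolin are among the samples. The labels give neither the promoter of each plasmid nor whether the stable cells were pools or single clones. Each group had 1 array, so no difference below has an error, an interval or a p-value, and each describes these 2 RNA samples.

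Kinesins use ATP to walk along microtubules or to alter microtubule ends. The mitotic kinesins build the bipolar spindle, move and align chromosomes, and organise the central spindle on which a cell divides. Many of their genes are transcribed mainly in the second gap phase and in mitosis, so that resting cells hold little of these RNAs. The transport kinesins carry vesicles, organelles and protein complexes in all cells, and in melanocytes such motors move melanosomes outward along microtubules. Mitotic and transport kinesins are read apart here.

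A log2 value of 5.89, the median of all values of named genes' probe sets, was used as the detection floor. A gene was called detected when the higher of its values reached that floor. Of the 37 kinesin genes, 27 were detected. At least 1.5-fold either way was used as a rule of size, which is not a test. By that rule 14 of the 27 detected kinesins were lower in NRF3 cells and 0 were higher. Over all 10162 detected genes, 23.6% were that much lower and 17% that much higher. The median log2 difference, NRF3 minus GFP, was -0.68 over the detected kinesins and -0.07 over all detected genes. The floor counts a gene through its higher value only, so a member that was dim in NRF3 cells stays in. For 2 detected members, Kif18a and Kif26b, the NRF3 value lay under the floor.

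The overexpressed gene was checked first. Nfe2l3, which encodes NRF3, had a log2 value of 10.1 on the NRF3 array, against 6.04 on the GFP array. The GFP value lay under 6.12, the GFP array's median over 5222 control rows whose names hold neg. On the NRF3 array that median was 6.37. The detection floor of 5.89 lies under both medians, so a gene called detected may still lie within background. Of 10 melanocyte markers 10 were detected, and 0 of 17 markers of leukocytes, fibroblasts, endothelium or epithelium were detected. Values under the control rows' upper quartile, 7.85 on the NRF3 array and 7.52 on the GFP array, are called dim below, since such a value may rest partly on background. Of the 27 detected kinesins, 18 had both values above these bounds.

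The start regions of 5 kinesin genes are shown because mitotic and transport members differed in them. Each line runs from 250 bases before to 30 bases after the gene's start, 5′ to 3′ on the gene's own strand, from RefSeq on GRCm38.p6. Capitals mark 2 motifs, read on both strands. The first is the cell cycle genes homology region (CHR), TTTGAA or TTCGAA, which the MuvB complex binds in genes of the second gap phase and mitosis. The second is the CCAAT box, CCAAT, which the factor NF-Y binds. On the opposite strand they read TTCAAA and ATTGG. Kif11 (chr19:37376132-37376411, plus strand), Kif15 (chr9:122950831-122951110, plus strand) and Kif23 (chr9:61946770-61947049, minus strand) are mitotic genes with large differences. Kif4 (chrX:100625815-100626094, plus strand) is a mitotic gene with a small one. Kif3b (chr2:153291166-153291445, plus strand) is a transport gene with a small one.
Kif11: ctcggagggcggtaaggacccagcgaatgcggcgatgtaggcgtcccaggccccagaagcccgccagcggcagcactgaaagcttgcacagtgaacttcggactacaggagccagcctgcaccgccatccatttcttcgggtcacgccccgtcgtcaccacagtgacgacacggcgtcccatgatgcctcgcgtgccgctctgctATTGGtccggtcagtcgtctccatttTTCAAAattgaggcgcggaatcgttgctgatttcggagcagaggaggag
Kif15: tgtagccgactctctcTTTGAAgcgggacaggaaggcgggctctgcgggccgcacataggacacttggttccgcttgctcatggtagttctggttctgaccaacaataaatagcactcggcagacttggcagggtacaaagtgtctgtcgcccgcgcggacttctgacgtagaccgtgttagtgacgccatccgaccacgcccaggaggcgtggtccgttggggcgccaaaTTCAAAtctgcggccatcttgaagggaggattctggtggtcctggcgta
Kif23: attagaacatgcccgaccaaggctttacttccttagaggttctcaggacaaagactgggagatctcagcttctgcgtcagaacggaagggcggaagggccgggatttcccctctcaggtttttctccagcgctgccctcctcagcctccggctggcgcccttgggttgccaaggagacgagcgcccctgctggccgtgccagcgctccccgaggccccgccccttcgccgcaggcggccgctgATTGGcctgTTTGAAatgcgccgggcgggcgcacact
Kif4: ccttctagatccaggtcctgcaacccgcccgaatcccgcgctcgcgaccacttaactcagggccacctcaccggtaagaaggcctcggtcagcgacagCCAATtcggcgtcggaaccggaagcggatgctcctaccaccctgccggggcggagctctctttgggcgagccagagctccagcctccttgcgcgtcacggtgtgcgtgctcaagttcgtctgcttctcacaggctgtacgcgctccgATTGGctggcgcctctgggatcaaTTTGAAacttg
Kif3b: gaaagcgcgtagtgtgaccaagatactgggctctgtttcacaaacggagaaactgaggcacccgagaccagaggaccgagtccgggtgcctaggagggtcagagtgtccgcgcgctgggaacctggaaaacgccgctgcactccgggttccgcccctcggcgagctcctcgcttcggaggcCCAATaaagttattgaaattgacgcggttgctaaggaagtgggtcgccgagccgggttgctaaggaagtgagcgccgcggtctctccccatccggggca

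In Kif11 the CHR began 19 bases before the start and the CCAAT box 45 bases before it. In Kif23 the CHR began at base 3 after the start. Kif4, whose difference was small, held a CHR too, at base 20 after the start, and it had 2 CCAAT boxes. Kif22 and Kif18b, the other mitotic kinesins within 1.5-fold, held both motifs as well, each with a CHR within 50 bases of the start. Kif3b had a CCAAT box and no CHR. Promoters of 300 bases, from 250 before to 50 after the start, were found for 29 of the 37 genes, with the first listed used where a gene has several. A CHR was present in 10 of the 11 mitotic promoters (90.9%), in 0 of the 8 transport promoters and in 2 of the 10 others, Kif24 and Kif26b. Over all 32851 RefSeq promoters of that length, 19.2% held it. The mitotic promoter without a match was that of Kif18a. A second promoter listed for the transport gene Kif1a held a CHR, and Kif1a was not detected. Within 50 bases of the start, 8 of the 11 mitotic promoters had a CHR (72.7%), against 5.31% of all promoters. A CCAAT box was present in 7 of the 11 mitotic (63.6%), 3 of the 8 transport (37.5%) and 37.4% of all promoters. A match is a description of letters and not a binding site. The members without a promoter in that table were Kif5a, Kif5b, Kif13b, Kif19a, Kif20a, Kif21b, Kifc2 and Kifc3. Among them Kif5b, Kifc3 and Kif21b were at least 2-fold lower in NRF3 cells. The count over transport promoters therefore covers neither Kif5b nor Kifc3.

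**Figure D1:**
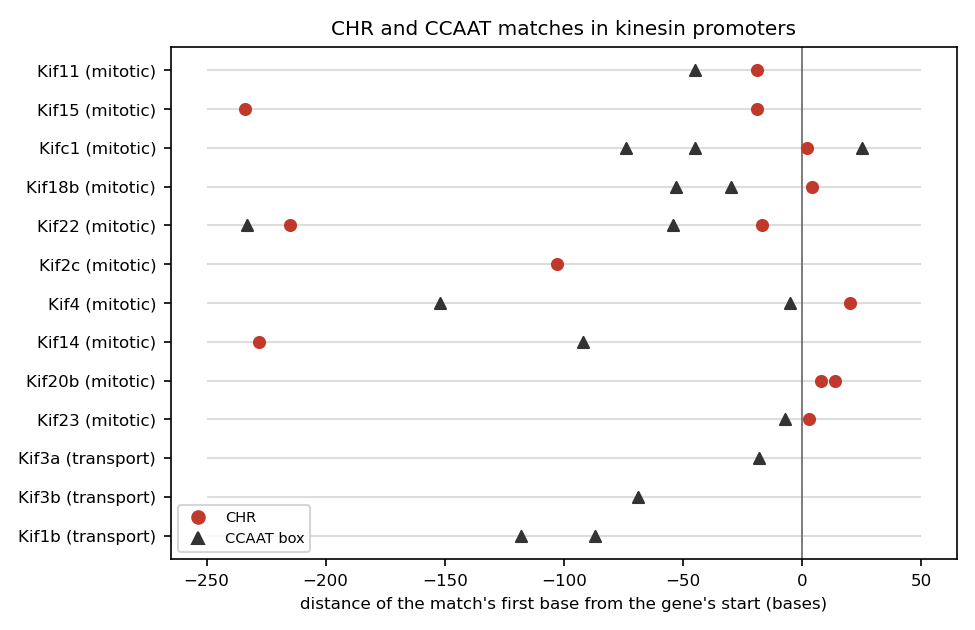
CHR matches (red circles) and CCAAT boxes (dark triangles) in the promoters of mitotic and transport kinesin genes that hold either motif, placed by the distance in bases of the match's first base from the gene's start. Of the 11 mitotic promoters 10 held a CHR, and of the 8 transport promoters 0 did.

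Mitotic kinesins were lower in NRF3 cells as a group. All 12 were detected, and 9 of the 12 were at least 1.5-fold lower (75%), with 0 higher. The shares over all detected genes were 23.6% lower and 17% higher. Of the 12, 11 had a difference below 0, as did 5507 of all 10162 detected genes. Their median log2 difference was -0.74, with a range of -1.69 to 0.15. By a 2-fold rule 4 of the 12 were lower, where 11% of all detected genes were, and 0 were higher, where 6.75% of all were. When each array was centred on its median, 6 of the 12 passed 1.5-fold, since Kif2c, Kif14 and Kif18a no longer reached it. Of all detected genes 18.9% were then lower and 21.8% higher.

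Of the mitotic kinesins, those that build the spindle differed most, and all 3 were at least 2-fold lower. Kif11 encodes EG5, the motor that pushes spindle poles apart. Kif11 had a log2 value of 10.36 in NRF3 cells, against 11.95 in GFP cells, a difference of -1.59 and 3.02-fold lower. Kif15, whose protein helps EG5 keep the spindle bipolar, had 9.004 in NRF3 cells, against 10.60 in GFP cells, which was 3.03-fold lower. Only 3.57% of all detected genes had a lower difference than Kif11. Kifc1 encodes a minus-end motor that focuses spindle poles and clusters extra centrosomes. Its log2 value was 6.60 in NRF3 cells, against 8.29 in GFP cells, a difference of -1.69. The NRF3 value was dim, so the size of that difference may depend on background. Kifc1 also has a close relative, Kifc5b, on the same chromosome, and RNA of either gene may bind probes of the other. Kifc5b had 6.06 in NRF3 cells, against 6.92 in GFP cells.

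All 4 kinesins of cytokinesis were at least 1.5-fold lower. Kif23 encodes MKLP1, the motor of the centralspindlin complex, which bundles midzone microtubules. Kif23 had a log2 value of 10.38 in NRF3 cells, against 11.53 in GFP cells, which was 2.21-fold lower. Kif20a encodes MKLP2, which carries the chromosomal passenger complex to the midzone. Its value was 11.78 in NRF3 cells, against 12.56 in GFP cells, a difference of -0.78. Kif20b, a relative of Kif20a that acts late in cytokinesis, had 7.34 in NRF3 cells, against 8.12 in GFP cells. The NRF3 value of Kif20b was dim. Kif14, which localises the citron kinase to the midbody, had 8.74 in NRF3 cells, against 9.42 in GFP cells, a difference of -0.68. Kif14 lay nearest to the size rule of these 4 and was within it after median centring, after quantile normalization and with the intensity trend or the median of its neighbours subtracted.

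The kinesins that move and align chromosomes differed less, and 2 of the 5 were at least 1.5-fold lower. Kif2c encodes MCAK, which removes tubulin from microtubule ends and corrects faulty kinetochore attachments. Kif2c had a log2 value of 12.17 in NRF3 cells, against 12.88 in GFP cells, which was 1.64-fold lower. It was within 1.5-fold after median centring and with its neighbours' median subtracted, at -0.41. Kif18a dampens chromosome movements at the spindle equator. Its value was 5.60 in NRF3 cells, against 6.28 in GFP cells. Both values were dim, so the difference of -0.68 may depend on background. The other 3 genes of this group were within 1.5-fold. Kif22, a chromokinesin that pushes chromosome arms outward, had 9.39 in NRF3 cells, against 9.80 in GFP cells. Kif18b, which shortens astral microtubules, had 8.94 in NRF3 cells, against 9.20 in GFP cells. Kif4 encodes a chromokinesin that works with condensin and with the midzone protein PRC1. Kif4 had 10.09 in NRF3 cells, against 9.93 in GFP cells, and was the mitotic kinesin with a difference above 0. A pseudogene of it, Kif4-ps, lay under the floor on both arrays, at 5.06 in NRF3 cells and 5.28 in GFP cells.

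**Figure D2:**
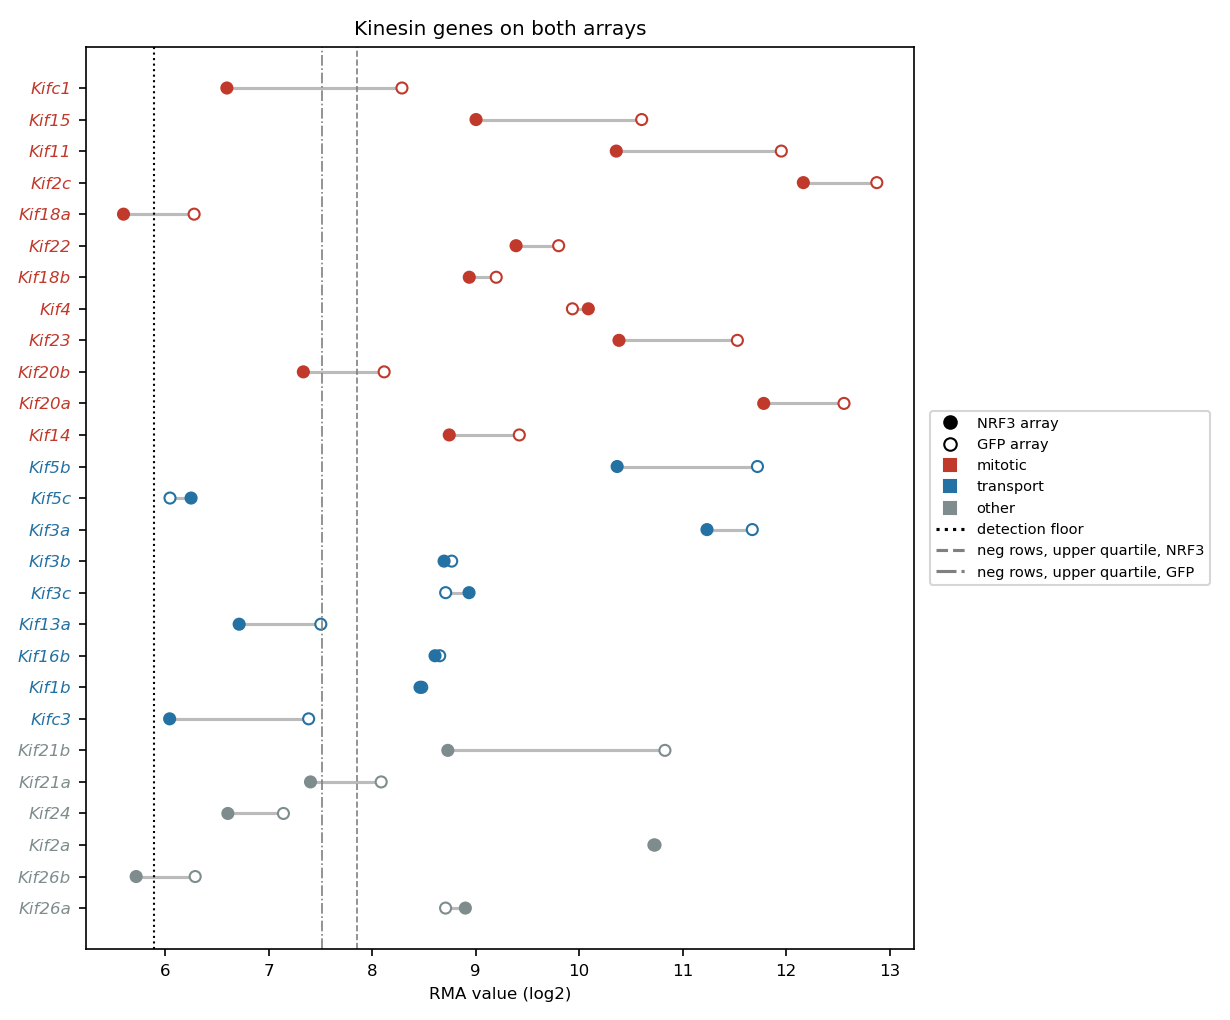
Log2 RMA values of the 27 detected kinesin genes on the NRF3 array (filled) and the GFP array (open), coloured by mitotic, transport and other roles, with the detection floor (dotted) and the control rows' upper quartile on the NRF3 array (dashed) and the GFP array (dash-dotted). For 11 of the 12 mitotic genes the NRF3 point lies left of the GFP point, and Kif4 is the exception.

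Most transport kinesins were within 1.5-fold, as were most detected genes. Of the 13 measured, 9 were detected, and 3 of these were at least 1.5-fold lower (33.3%), with 0 higher. The shares over all detected genes were 23.6% lower and 17% higher. Within 1.5-fold lay 6 of the 9, and 6038 of all 10162 detected genes. As deposited, 7 of the 9 differences lay below 0 and 2 above, where 5507 of all 10162 detected genes lay below and 4654 above. Their median log2 difference was -0.07, the same as over all detected genes to 2 decimals. It lay above 0 after median centring, after quantile normalization and with the intensity trend subtracted, so the median has no settled direction. The mitotic median minus the transport median was -0.67. Genes are not replicates, and with 1 array per group this contrast of the 2 groups has no test. It depended on the floor: at the 75th percentile in place of the median, 2 transport genes were left, Kif5b and Kif3a, and the contrast was 0.12.

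Kif5b and Kifc3 had the largest transport differences, close to each other as deposited. Kif5b encodes the widely expressed heavy chain of kinesin-1, which moves mitochondria, lysosomes and many vesicles. Kif5b had a log2 value of 10.37 in NRF3 cells, against 11.72 in GFP cells, a difference of -1.36 and 2.56-fold lower. Its difference was below that of all but 5.22% of detected genes, so it stood beside the spindle kinesins in size. The neuronal heavy chain genes gave no comparable value. Kif5c had 6.25 in NRF3 cells, against 6.05 in GFP cells, each under its array's median of the control rows. Kif5a, another heavy chain gene of neurons, was not detected.

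Kinesin-2, a motor made of 2 different heavy chains and an accessory subunit, was within 1.5-fold throughout. It serves cilia and, in frog pigment cells, the dispersal of melanosomes. Kif3a had a log2 value of 11.23 in NRF3 cells, against 11.67 in GFP cells. Kif3b, its usual partner chain, had 8.69 in NRF3 cells, against 8.77 in GFP cells. Kif3c, an alternative partner chain, had 8.94 in NRF3 cells, against 8.71 in GFP cells. These 3 differences ran from -0.44 to 0.23. The accessory subunit gene Kifap3, which is no motor, had 10.71 in NRF3 cells and 11.15 in GFP cells, a difference of -0.44 that was also within the rule.

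Of the kinesin-3 genes, Kif13a was lower and the other detected members differed little. Kif13a encodes a motor that brings endosomal cargo, pigment enzymes among it, to maturing melanosomes. Kif13a had a log2 value of 6.72 in NRF3 cells, against 7.50 in GFP cells, a difference of -0.79. Both values were dim, so this difference may depend on background. Kif1b, which moves mitochondria and synaptic vesicle precursors in neurons, had 8.46 in NRF3 cells, against 8.48 in GFP cells. Kif16b, a motor of early endosomes, had 8.61 in NRF3 cells, against 8.65 in GFP cells. Kifc3 encodes a minus-end motor of epithelial junctions and apical vesicles. It had 6.04 in NRF3 cells, against 7.39 in GFP cells, a difference of -1.34, and lay at -1.89 relative to its neighbours, where Kif5b lay at -1.28. Both values of Kifc3 were dim, and that in NRF3 cells lay under 6.37, the control rows' median there. The size of its difference may therefore depend on background, which was not tested.

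The lowest difference of all kinesins belonged to neither group. Kif21b encodes a motor that limits microtubule growth and is best known from neurons and T cells. Kif21b had a log2 value of 8.73 in NRF3 cells, against 10.83 in GFP cells, which was 4.28-fold lower. Neither value was dim. Of all detected genes 1.49% had a lower difference. Its relative Kif21a, which stabilises microtubules at the cell cortex, had 7.40 in NRF3 cells, against 8.09 in GFP cells, a difference of -0.68 that was under 1.5-fold after median centring, after quantile normalization and with the intensity trend or its neighbours' median subtracted. The NRF3 value of Kif21a was dim. Counting both KIF21 genes with the transport kinesins gave 5 of 11 lower, where 23.6% of all detected genes were. The transport median was then -0.44.

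The remaining detected kinesins were within 1.5-fold as deposited. Kif2a, a relative of MCAK that shortens microtubules in spindles and in neurons, had 10.73 in NRF3 cells, against 10.72 in GFP cells. Kif24, which restrains cilium growth at the centriole, had 6.61 in NRF3 cells, against 7.14 in GFP cells. The difference was 0.01 for Kif2a and -0.54, close to the size rule, for Kif24, whose values were both dim. With its neighbours' median subtracted Kif24 passed the rule, at -0.61. Counting Kif2a and Kif24 with the mitotic kinesins gave 9 of 14 lower, where 23.6% of all detected genes were. The mitotic median was then -0.70 and the mitotic minus transport contrast -0.62. Kif26a, an atypical kinesin without motor activity, had 8.90 in NRF3 cells, against 8.71 in GFP cells. Kif26b, its relative, had 5.72 in NRF3 cells, against 6.29 in GFP cells, both dim. Its difference of -0.57 was also close to the size rule, and it passed at -0.61 with the intensity trend subtracted.

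The other 10 kinesin genes were not detected. They were Kif1a, Kif2b, Kif5a, Kif6, Kif7, Kif9, Kif12, Kif13b, Kif19a and Kifc2, with log2 values between 2.68 and 5.53 over both arrays. Several of these are known from neurons, such as Kif1a, Kif5a and Kifc2, or from cilia, such as Kif6, Kif9 and Kif19a. Their differences ran from -0.45 to 0.72, and no fold is given for them. Kif1c, Kif17, Kif27 and Kif28 were not analysed here.

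**Figure D3:**
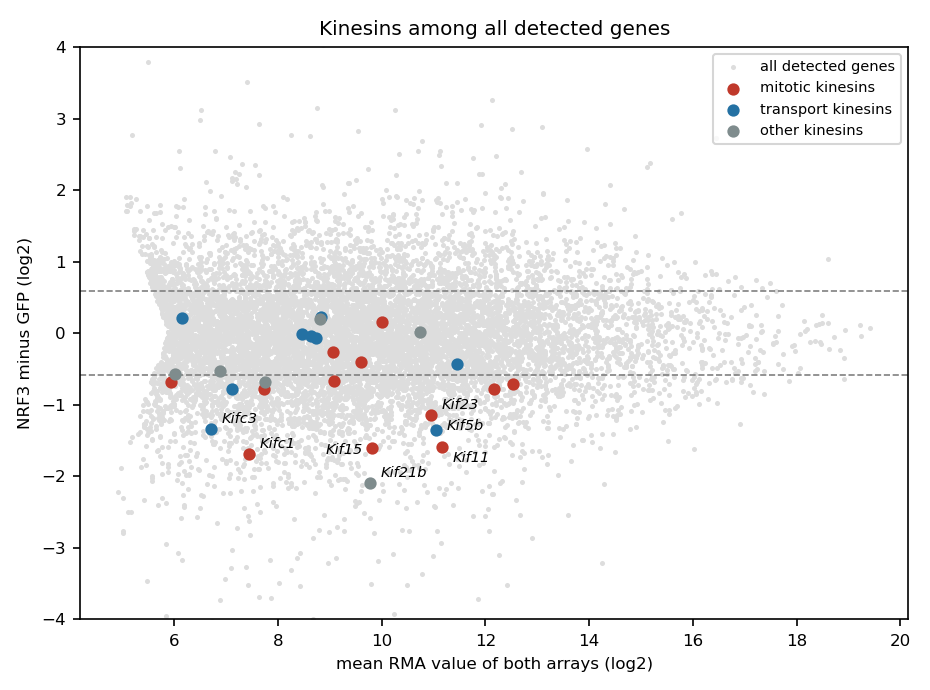
NRF3 minus GFP (log2) against the mean log2 RMA value of both arrays for the detected genes (grey) and for mitotic (red), transport (blue) and other (dark grey) kinesins, with the 1.5-fold rule as dashed lines and the kinesins at least 2-fold lower named. The axis ends at 4 either way and leaves out 25 genes, none of them a kinesin, and no kinesin lies above the upper dashed line.

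Genes whose products work with the mitotic kinesins were mostly lower too. Of 23 detected partner genes of the central spindle, the spindle and the kinetochore, 17 were at least 1.5-fold lower (73.9%) and 0 higher. Their median was -1.08. The shares over all detected genes were 23.6% lower and 17% higher. Racgap1, which encodes the partner of MKLP1 in centralspindlin, had a log2 value of 13.14 in NRF3 cells, against 14.64 in GFP cells. Aurkb, the kinase of the chromosomal passenger complex, had 11.73 in NRF3 cells, against 13.28 in GFP cells. The other members of the central spindle list lay between these and Prc1, at -0.50, and Ect2, at -0.62, which differed least. In the spindle and kinetochore list Nusap1, at -1.39, and Hmmr, at -1.30, were lowest, and Spc25, at 0.52, and Numa1, at 0.45, were highest. Cenpe encodes a kinetochore kinesin whose symbol does not start with Kif. Cenpe had 8.40 in NRF3 cells, against 9.60 in GFP cells, a difference of -1.20. These partner genes were chosen with earlier results of these data known, so their counts describe the arrays and support nothing further.

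Of 16 detected genes of light chains and cargo adaptors, 3 were at least 1.5-fold lower (18.75%) and 4 higher (25%), with a median of 0.10. Over all detected genes 23.6% were lower and 17% higher, so these shares lie near the background. Klc1 encodes the main light chain of kinesin-1, which links KIF5 heavy chains to cargo. Klc1 had a log2 value of 11.72 in NRF3 cells, against 13.03 in GFP cells, a difference of -1.31. Relative to its block of neighbouring genes Klc1 lay at -0.62. The next lowest was Trak1, which ties kinesin-1 to mitochondria, at -0.77. The highest were Kidins220, a transmembrane cargo of kinesin-1, at 0.90, and the kinesin-1 adaptor Fez1, at 0.83, whose GFP value was dim.

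**Figure D4:**
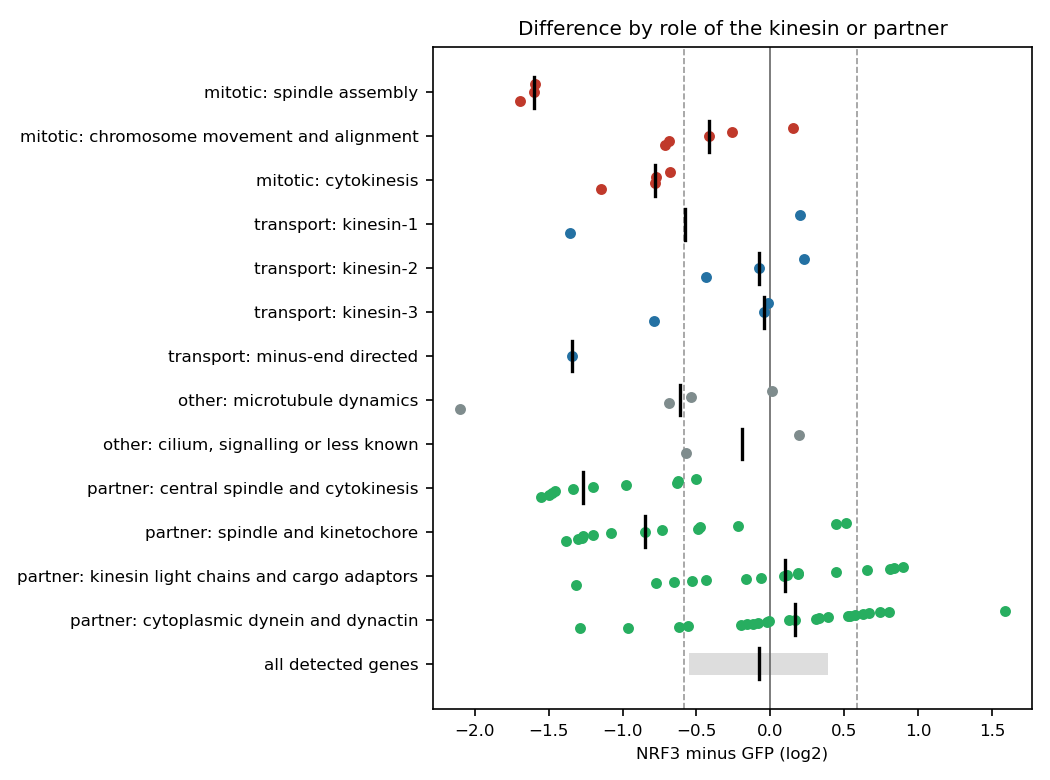
NRF3 minus GFP (log2) for every detected member of the kinesin lists (red, blue and grey points) and of the partner lists (green points), with each list's median as a black line, the interquartile range of all detected genes as a grey bar and the 1.5-fold rule as dashed lines. Of the medians, that of the spindle assembly kinesins lies farthest to the left, at -1.60. The kinesin-2 and kinesin-3 medians lie near that of all detected genes. The single kinesin farthest to the left is Kif21b, at -2.10.

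Blocks of neighbouring genes differed between these arrays, so each kinesin was set beside the median of its block of at least 50 detected neighbours. The median difference was -0.51 over detected genes of chromosome 1 and 0.56 over those of chromosome 8. The 37 kinesin genes lie on 16 chromosomes, with 4 on chromosome 1 and 1 on chromosome 8, and the 14 lower ones lie on 10. Kif14 and Kif21b share a block on chromosome 1 whose median was -0.48. Relative to it Kif14 lay at -0.20 and Kif21b at -1.62. Kifc3 on chromosome 8 went against its block, whose median was 0.54. Kif26a on chromosome 12 did so too, at 0.19 in a block with a median of -0.69, and Klc1 lies in that block. For Kif11, Kif15, Kif23 and Kif5b the block medians lay between -0.18 and 0.04. With the block median subtracted, 8 of 12 mitotic and 3 of 9 transport kinesins were at least 1.5-fold lower. Of all detected genes in blocks, 19.2% were then lower and 17.7% higher. Kif14 and Kif2c no longer passed, and Kif22 passed only then, at -0.59. The part of chromosomal blocks in single differences was not tested further.

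**Figure D5:**
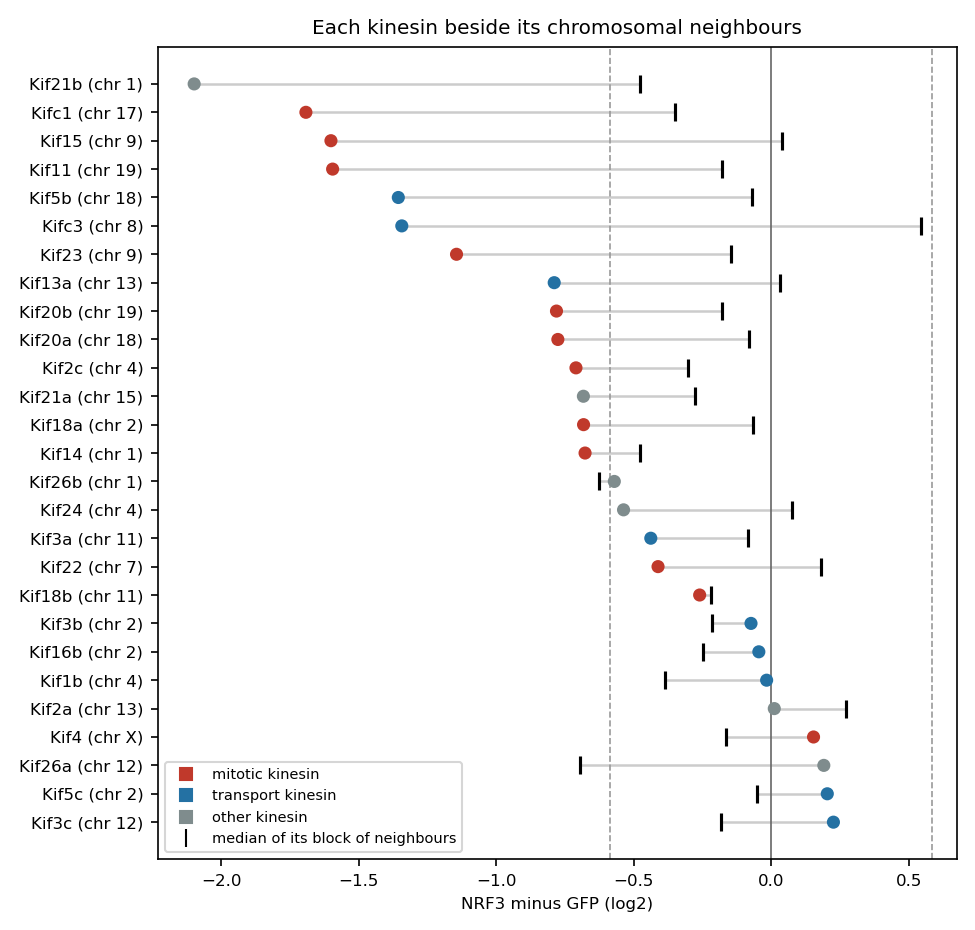
NRF3 minus GFP (log2) for each detected kinesin (points, coloured by role) beside the median of its block of neighbouring detected genes (black ticks), ordered by difference, with the chromosome in brackets and the 1.5-fold rule as dashed lines. Kifc3, Kif15, Kif21b and Kif11 lie farthest left of their block's tick, and Kif14 and Kif26b lie near theirs.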

How the data were processed

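Total RNA of 2 samples, 1 per group, was hybridised to Affymetrix arrays in 1 colour. The authors deposited log2 values per probe set, for which the submitters' processing notes name Affymetrix Expression Console and RMA. Its version, its settings and the genome build were not stated there. The deposited log2 values reach 19.7 on the NRF3 array and 19.8 on the GFP array, above 16, the most a 16-bit scan allows, so folds hold on the deposited scale only. Of 28846 rows, 19572 had 1 gene symbol in the platform annotation and none had several. All 19572 matched RefSeq (GRCm38.p6) by gene number, which gave chromosomes and gene order. Several probe sets served 55 genes, of which the brightest was kept, and each kinesin had 1. The difference is NRF3 minus GFP. No model or p-value was possible, and the number of arrays limits the precision. Blocks were 192 runs of at least 50 detected neighbours. The members, the lists, the floor and the size rules were chosen with earlier results of these data known. Every kinesin is named, with Cenpe, Kifap3 and the extremes of each partner list. Racgap1, Aurkb, Prc1, Ect2, Klc1, Trak1, Kidins220 and Fez1 are such extremes, and Kifc5b and Kif4-ps were added as close copies. The counting, quantile and trend steps were tested on simulated data. Python 3.11.15, pandas 2.3.3 and statsmodels 0.14.6 were used.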

Additional observations from a re-analysis of the deposited data

How the results depend on the processing

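No paired analysis was possible because each group has 1 array, and for the same reason no replicate could be left out. The counts of higher and lower kinesins and the medians were recomputed under 9 other settings and under 4 more chosen after seeing the data. By the 2-fold rule 7 kinesins and 4 mitotic kinesins were lower, where 11% of all detected genes were. With the 75th percentile as the floor 11 kinesins were left, 2 of them transport kinesins. There 7 kinesins, 5 mitotic and 1 transport kinesin were lower, where 24.1% of all genes that reached this floor were. The transport median was then -0.90 and the mitotic minus transport contrast turned to 0.12. With no floor 2 kinesins were higher, both of them transport kinesins under the floor, Kif1a and Kif5a. Of all genes 15.0% were then higher. After median centring the mitotic median was -0.62 and the transport median 0.052. The transport median was 0.10 after quantile normalization and 0.047 with the intensity trend subtracted. With neighbouring genes subtracted the mitotic median was -0.61 and the transport median 0.14. In that setting 1 kinesin, Kif26a, was higher, where 17.7% of all detected genes in blocks were. Among the 18 kinesins with both values above the control rows' upper quartile, 8 were lower, 1 of them a transport kinesin. Of all genes with both values above it, 21.1% were lower. With Kif21a and Kif21b counted as transport, 5 of 11 transport kinesins were lower, where 23.6% of all detected genes were. The transport median was then -0.44 and the contrast -0.30. Each of the 14 lower kinesins kept its sign wherever it was retained. Median centring moved the median of all detected genes by 0.13 and quantile normalization by 0.10. Of the genes past 1.5-fold, 58.1% were lower as deposited, 46.5% after median centring and 48.7% after quantile normalization. Without a floor 2931 genes were higher and 3171 lower, where 1728 and 2396 detected genes were. Median centring subtracts 1 constant from every difference, so its shift of 0.13 and the changed share of lower genes follow from the method. The cause of the other shifts was not tested, beyond the fewer genes that a higher floor leaves. Array data give no depth, and 9 of the 27 detected kinesins had a dim value.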

Other observations

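Genes of cytoplasmic dynein and dynactin, the minus-end transport machine that works against kinesins, passed 1.5-fold in shares near those of all genes. Among the 23 detected, 5 were higher by 1.5-fold or more in NRF3 cells (21.7%) and 3 lower (13.0%), where 17% and 23.6% of all detected genes were. Their median log2 difference was 0.17. Bicdl1, an adaptor between dynein and vesicles, was highest, at 7.08 in NRF3 cells and 5.49 in GFP cells. Both values were dim, and the GFP value lay under the floor. Ndel1, a dynein regulator, had 12.37 in NRF3 cells, against 11.57 in GFP cells. The lowest were Hook1, an activating adaptor, at 9.95 in NRF3 cells and 11.24 in GFP cells, and the light chain gene Dynlt3, at 10.13 in NRF3 cells and 11.09 in GFP cells.

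Motifs of the pathways that were manipulated were also looked for. A full cAMP response element, TGACGTCA, was present in 2 of the 29 kinesin promoters (6.90%), those of Kif18a and Kif5c, and in 1.79% of all promoters. The core of the antioxidant response element, TGACNNNGC read on both strands, was present in 1 of the 29 (3.45%), that of Kifc1, and in 12.4% of all promoters. These are counts of 1 or 2 genes, and no match says only that these letters are not in this window.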
